A study of Mus musculus with 6 samples.

Results

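The fatty acid desaturases and elongases of mouse liver were followed in animals given trichloroethylene (TCE), an industrial solvent. The 10 genes described here were 5 desaturases, Scd1, Scd2, Fads1, Fads2 and Fads3, and 5 elongases, Elovl1, Elovl2, Elovl3, Elovl5 and Elovl6. They were chosen by gene symbol, out of 24239 genes with a symbol on the array, and 13 probes carried their names. All 13 probes were well above background on all 6 arrays, so that none of the 10 genes was lost to the filter on dim probes. Adult male B6C3F1 mice, 7 weeks old by the labels, received corn oil by mouth once a day for 5 days. The control group (3 mice) received the oil alone, and in the TCE group (3 mice) the oil carried TCE at 1000 mg/kg b.w. Each mouse gave 1 liver RNA sample and had an array of its own, with no pooling, so that the replicates are animals. Whole liver was used, and this is a short exposure at a single dose in a single hybrid strain and in males.

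Desaturases place double bonds in fatty acyl-CoA chains, using electrons passed from NADH through cytochrome b5, and elongases condense malonyl-CoA with the chain as the first step of each round of lengthening. In liver, Scd1 makes oleate and palmitoleate from saturated chains that fatty acid synthase and Elovl6 deliver. Fads1 and Fads2, the delta-5 and delta-6 desaturases, work in turn with Elovl5 and Elovl2 to turn dietary linoleate and linolenate into long polyunsaturated fatty acids such as arachidonate. Many genes of both families are known targets of the sterol regulatory element binding protein SREBP-1c, of the liver X receptors and of the peroxisome proliferator-activated receptor PPAR alpha.

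The families are physically clustered. Of the 10 genes, 6 lie on chromosome 19. In the RefSeq order of protein-coding genes Fads3, Fads2 and Fads1 follow each other, and so do Scd3, Scd2, Scd4 and Scd1. Each probe is a 60-base sequence, and the first 30 bases of some are shown, 5′ to 3′. Positions come from the annotation of the array (mm9), and the place of each probe within its gene model was not annotated here. The Scd1 and Scd2 probes are shown because of these paralogs Scd1 alone passed the threshold, the Fads2 probes because there are 2 of them, and the Scd3 probes because they disagree:
Scd1, chr19:44469417-44469446, minus strand: actcctgggctaagtatctgacagtctcac
Scd2, chr19:44381024-44381053, plus strand: acatttggggatcctctgcagaggagtatt
Fads2, brighter probe, chr19:10137790-10137819, minus strand: tttagctgttgtgttaacatttcctacaga
Fads2, dimmer probe, chr19:10163259-10163288, minus strand: agctggatggctgcaacatgactatggcca
Scd3, brightest probe, chr19:44289995-44290024, plus strand: aagacatccgtcctgaaatgaaagaagata
Scd3, dimmer probe, chr19:44318249-44318278, plus strand: ataaagtcaaccataggtcaagaggcagag
Scd3, dimmest probe, chr19:44316703-44316732, plus strand: ttcagggtaggtgtctcaagccaaatccaa
Over 64 pairs of probes for different genes of a family, the longest run of bases in common was 8, and the best ungapped alignment matched 24 of 60 bases. These comparisons are between probes, so they cannot show whether a probe binds the transcript of a related gene. The probes were not compared with whole transcripts.

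Promoter sequence was in the RefSeq table for 6 of the 10 genes and not for Scd1, Scd2, Fads1 and Elovl3. The 250 bases before the start are shown for the 3 genes with an entry whose signal was higher in every TCE mouse than in every control mouse. They are on GRCm38.p6, 5′ to 3′ on the strand of the gene, and capitals mark motif matches on either strand:
Fads2, chr19:10101504-10101753, minus strand: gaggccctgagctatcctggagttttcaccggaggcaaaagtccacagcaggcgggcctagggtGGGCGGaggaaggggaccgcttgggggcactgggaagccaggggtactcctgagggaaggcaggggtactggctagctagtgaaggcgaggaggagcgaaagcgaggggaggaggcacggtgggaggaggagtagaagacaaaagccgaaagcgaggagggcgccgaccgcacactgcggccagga
Elovl5, chr9:77917115-77917364, plus strand: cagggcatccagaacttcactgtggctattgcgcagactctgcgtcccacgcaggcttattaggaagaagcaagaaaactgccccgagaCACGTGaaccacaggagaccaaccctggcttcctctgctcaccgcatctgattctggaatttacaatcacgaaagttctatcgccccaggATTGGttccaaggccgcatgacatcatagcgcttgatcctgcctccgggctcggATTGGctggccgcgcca
Elovl6, chr3:129532136-129532385, plus strand: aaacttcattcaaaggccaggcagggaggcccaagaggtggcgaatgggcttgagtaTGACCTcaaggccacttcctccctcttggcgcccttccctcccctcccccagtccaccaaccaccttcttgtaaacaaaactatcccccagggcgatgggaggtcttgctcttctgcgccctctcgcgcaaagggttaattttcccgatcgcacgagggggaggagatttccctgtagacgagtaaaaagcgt
The motifs searched on both strands were the sterol regulatory element TCACNCCAC, the NF-Y box CCAAT, the nuclear receptor core motif AGGTCA, 2 copies of AGGTCA in the same direction with 1 base between them (direct repeat 1, which contains the core motif), the E-box CACGTG and the GC box GGGCGG. The Fads2 promoter held 1 GC box, 186 to 181 bases before the start, and a GC box occurred in 32.7% of 32851 promoters of the same length. The Elovl5 promoter held 2 CCAAT boxes, at 71 to 67 and at 17 to 13 bases before the start, and 1 E-box at 161 to 156 bases. CCAAT was found in 33.8% and CACGTG in 6.02% of all promoters. The Elovl6 promoter held 1 AGGTCA motif at 193 to 188 bases, a motif found in 14.0% of all promoters. The sterol regulatory element, present in 1.05% of promoters, and direct repeat 1, present in 0.0335%, had no match in these 3 windows.

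After 5 days of TCE, Scd1 and Fads2 were up-regulated, and no gene of the 10 was down-regulated past the threshold. The mRNA expression level of Scd1 was 3.44-fold and that of Fads2 2.54-fold the control level. Elovl5, Elovl6 and Fads1 were also higher in every TCE mouse than in every control mouse, at 2.00-fold, 2.32-fold and 1.54-fold, but missed the adjusted threshold. Scd2, Fads3, Elovl1, Elovl2 and Elovl3 overlapped between the groups.

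A gene was called where limma gave a p of at most 0.05 after Benjamini-Hochberg adjustment over 22731 detected probes and the change was at least 2-fold. With each gene represented by its brightest detected probe, 2 of the 10 genes were called higher and 0 lower, while 1.30% of the 13284 genes tested were called higher and 0.429% lower. Without the fold limit the counts for the 10 genes stayed at 2 and 0, against 1.80% and 0.587% of all genes. At an unadjusted limma p under 0.05, 5 of the 10 genes passed, 5 higher and 0 lower, against 12.0% higher and 7.11% lower of all genes tested. All 3 TCE mice lay above all 3 control mice for 5 of the 10 genes, against 17.1% of all genes tested, and below them for 0, against 10.8%. In the exact permutation test over mice the 5 separated genes each had p = 0.1, the smallest value that 3 against 3 mice allow. The median log2 fold change was 0.44 over the 10 genes and 0.02 over all genes tested, and 7 of the 10 were above 0. These 10 genes share a tissue and pathways and are not independent of each other. In whole liver, a change in the share of a cell type cannot be told apart from a change in RNA per cell.

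**Figure D1:**
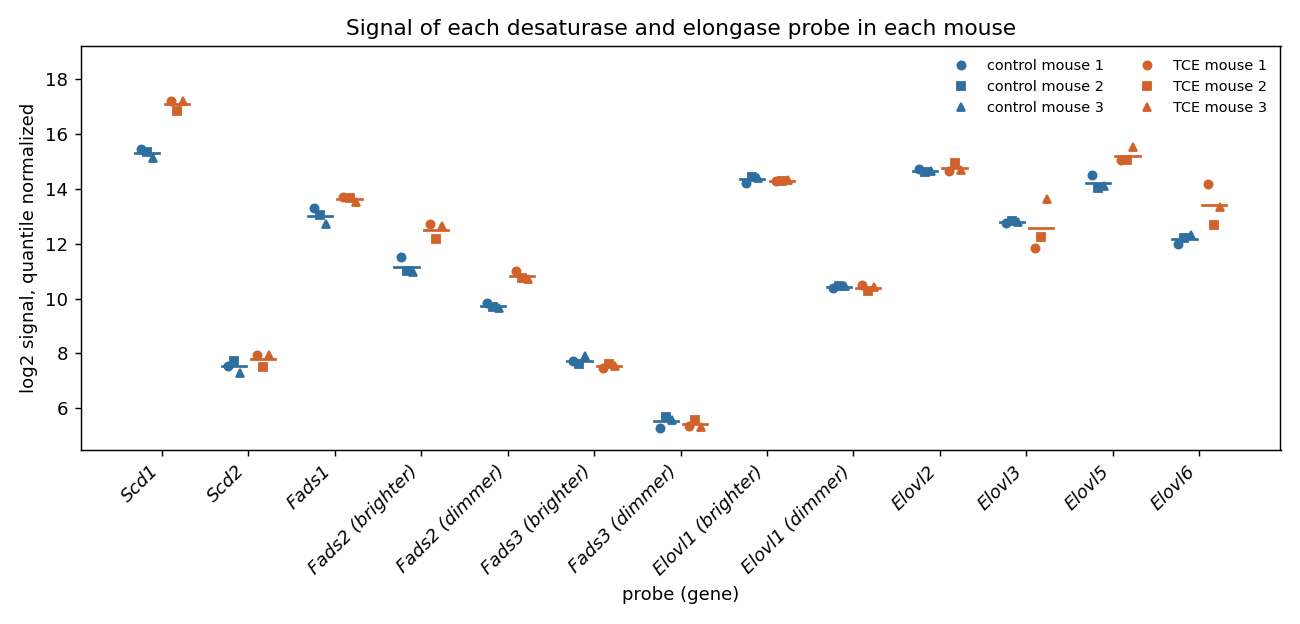
Log2 quantile-normalized signal (y axis) of the 13 probes (x axis) in each of the 3 control mice (blue) and 3 TCE mice (orange), with lines at the group means. Brighter and dimmer name the probes of a gene with 2, and a level can be compared between mice but not between probes. Scd1 in the TCE mice sits between 16.83 and 17.21, above all control mice at 15.12 to 15.43.

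Of the stearoyl-CoA desaturases, Scd1 is the main liver form and Scd2 the form best known from brain and developing tissue. The log2 signal of Scd1 was 15.43, 15.32 and 15.12 in control mice 1, 2 and 3 and 17.21, 16.83 and 17.18 in TCE mice 1, 2 and 3. The lowest TCE mouse was 1.39 above the highest control mouse, a gap wider than the spread within either group (SD 0.16 in control and 0.21 in TCE mice, n = 3). The log2 fold change was 1.78 ± 0.16 (SE), with an adjusted limma p of 0.00615. This call was kept whichever mouse was left out, at adjusted limma p values of 0.013 to 0.0363.

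The log2 signal of Scd2 was 7.55, 7.73 and 7.30 in control mice and 7.93, 7.49 and 7.96 in TCE mice. TCE mouse 2 was within the control range and the other two were above it. The log2 fold change was 0.27 ± 0.18 (SE), with a 95% interval of -0.18 to 0.71 and an adjusted limma p of 0.503. The interval of Scd2 lies below that of Scd1, which ran from 1.40 to 2.16. Taken within each mouse, the log2 difference between Scd1 and Scd2 was larger by 1.51 in TCE mice, and it separated the groups. The exact permutation test gave p = 0.1, the smallest possible, and 0.15 after adjustment over the 3 paralog pairs compared.

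Scd3, Scd4, Fads6, Elovl4 and Elovl7, the relatives outside the 10 genes, were read for comparison. The brightest of the 3 Scd3 probes, the first of those printed above, had log2 signals of 9.41, 9.28 and 9.45 in control mice and 11.78, 11.16 and 11.47 in TCE mice. Its log2 fold change was 2.09 ± 0.18 (SE), with an adjusted limma p of 0.00544, and the call was kept in all 6 fits with a mouse left out. The dimmer Scd3 probe gave 0.12 ± 0.24 with an adjusted limma p of 0.824. The dimmest probe was higher in the TCE mice (3.83, 4.63 and 3.70) than in the control mice (2.53, 3.02 and 2.67). It was well above background in 0 of 6 mice and was not tested. The detected probes of Scd3 therefore disagree, and no single change can be given for the gene. Whether its brightest probe also binds transcripts of Scd1 was not tested. Both Fads6 probes overlapped between the groups, with log2 fold changes of -0.05 and 0.16. Scd4, Elovl4 and Elovl7 were not detected by the rule used.

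The front-end desaturases Fads1 and Fads2 act in the same route to polyunsaturated fatty acids, and Fads3 is a sphingoid base desaturase. The brighter Fads2 probe had log2 signals of 11.51, 11.00 and 10.97 in control mice and 12.70, 12.18 and 12.64 in TCE mice. The groups were separated by 0.67, with TCE mouse 2 the lowest of its group and control mouse 1 the highest of the controls. This is a log2 fold change of 1.35 ± 0.21 (SE), with an adjusted limma p of 0.0374.

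The dimmer Fads2 probe had 9.83, 9.71 and 9.66 in control mice and 10.99, 10.76 and 10.73 in TCE mice. It gave a log2 fold change of 1.09 ± 0.12 (SE), or 2.13-fold, with an adjusted limma p of 0.0145. Both probes therefore placed every TCE mouse above every control mouse and passed the threshold. The call by the brighter probe was kept only when TCE mouse 2 was left out, at an adjusted limma p of 0.0477. It was lost without control mouse 1, 2 or 3 (adjusted p of 0.0531, 0.15 and 0.12) and without TCE mouse 1 or 3 (0.132 and 0.0953). By the dimmer probe the call was kept in 3 of these 6 fits and lost without control mouse 2, control mouse 3 or TCE mouse 1 (adjusted p of 0.0834, 0.0643 and 0.0561). The log2 fold change itself stayed between 1.25 and 1.52 for the brighter probe and between 1.01 and 1.14 for the dimmer one over the 6 fits.

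The log2 signal of Fads1 was 13.30, 13.03 and 12.72 in control mice and 13.70, 13.68 and 13.53 in TCE mice. The TCE mice were close together (SD 0.09) and all above the controls, which were spread more widely (SD 0.29), with a gap of 0.23 between the groups. Fads1 had a log2 fold change of 0.62 ± 0.17 (SE), with a 95% interval of 0.21 to 1.03 and an adjusted limma p of 0.139. Fads1 and Fads2 are neighbours on the chromosome. The log2 signal of Fads1 minus that of the brighter Fads2 probe, taken within each mouse, differed by -0.73 between TCE and control mice and separated the groups. The exact permutation p of that difference was 0.1, and 0.15 after adjustment over the 3 pairs. With the mean of both Fads2 probes the difference was smaller, at -0.6.

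The brighter Fads3 probe had 7.71, 7.60 and 7.92 in control mice and 7.48, 7.61 and 7.56 in TCE mice, so that the groups overlapped. Its log2 fold change was -0.19, with a 95% interval of -0.50 to 0.12, and the dimmer probe gave -0.11 with an interval of -0.47 to 0.25. Neither interval reaches a 2-fold change in either direction. With no normalization between arrays, which moved the median of all probes tested from 0.02 to 0.25, the value of the brighter probe turned to 0.02.

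**Figure D2:**
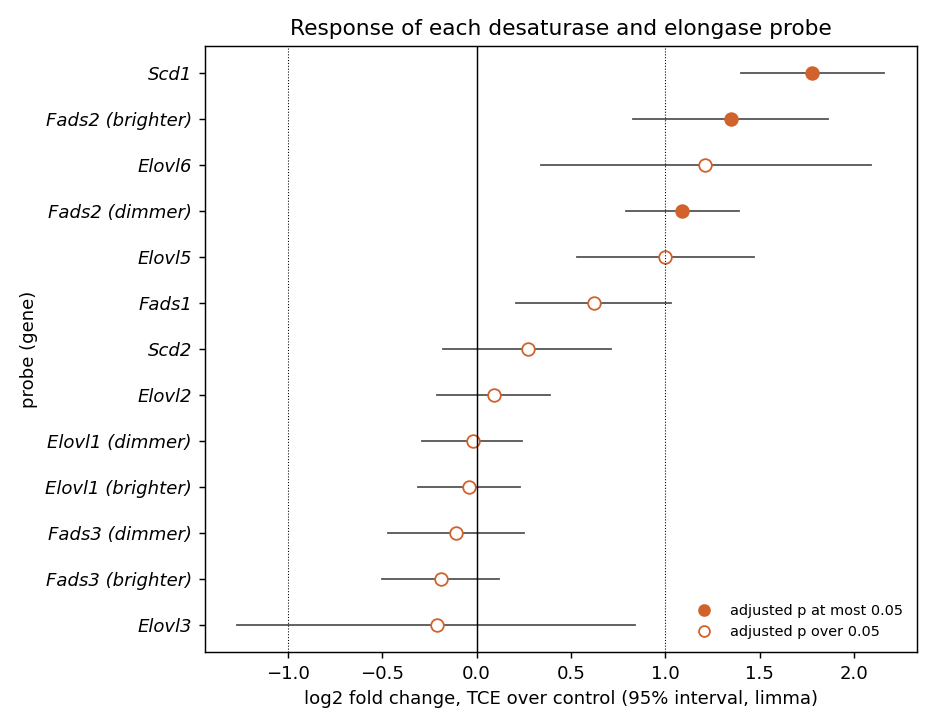
Log2 fold change of TCE over control (x axis) for each of the 13 probes (y axis) with its 95% interval from limma. Filled points have an adjusted p of 0.05 or less and dotted lines mark a 2-fold change. The filled points are Scd1 at 1.78 and the 2 Fads2 probes at 1.35 and 1.09, and the interval of Elovl3 is the widest, from -1.27 to 0.84.

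Among the elongases, Elovl5 lengthens polyunsaturated chains and Elovl6 takes palmitate to stearate, the substrate of Scd1. The log2 signal of Elovl5 was 14.49, 14.02 and 14.09 in control mice and 15.06, 15.03 and 15.51 in TCE mice. All TCE mice were above all controls, by at least 0.54, and TCE mouse 3 was the highest. The log2 fold change was 1.00 ± 0.20 (SE), with a 95% interval of 0.53 to 1.47 and an adjusted limma p of 0.0663. Elovl5 passed the threshold with normexp background correction (adjusted limma p of 0.0323) and with a variance trend in limma (0.0355).

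The log2 signal of Elovl6 was 12.00, 12.22 and 12.32 in control mice and 14.17, 12.67 and 13.34 in TCE mice. Every TCE mouse was above every control, but TCE mouse 2 by only 0.35, and the TCE group was widely spread (SD 0.75 against 0.16 in control mice). For Elovl6 the log2 fold change was 1.21 ± 0.36 (SE), with a 95% interval of 0.34 to 2.09 and an adjusted limma p of 0.162. It ranged from 0.83 without TCE mouse 1 to 1.58 without TCE mouse 2. The responses of Elovl5 and Elovl6 differed by -0.21 (exact permutation p = 0.8), and the sign of this difference turned without control mouse 1 (0.02) or without TCE mouse 1 (0.24).

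Elovl3, which lengthens saturated and monounsaturated chains and is known in liver for its daily rhythm and its response to sex hormones, stood out for its spread. Its log2 signal was 12.74, 12.81 and 12.78 in control mice and 11.84, 12.23 and 13.62 in TCE mice. The controls were within 0.07 of each other, and TCE mice 1 and 2 lay below them while TCE mouse 3 lay above. The SD was 0.03 in control and 0.93 in TCE mice, a ratio of 28.5. Of the genes tested, 2.45% had a TCE SD as large and 0.414% a ratio as large. The log2 fold change was -0.21 ± 0.44 (SE), with an adjusted limma p of 0.837. It turned to 0.15 without TCE mouse 1 and was -0.74 without TCE mouse 3.

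Elovl6 was the other gene with a wide TCE spread, and 4.16% of the genes tested had a TCE SD as large as its own. The mice did not stand in the same order in the pair. TCE mouse 1 had the highest Elovl6 and the lowest Elovl3 signal, and TCE mouse 3 the highest Elovl3 and Elovl5 signals. For Scd1, Elovl6 and the brighter Fads2 probe the lowest TCE mouse was TCE mouse 2. Among 13 of 16 clock genes detected, 0 passed the threshold, and the log2 of their mean signal was 12.18 to 12.44 in control mice and 12.32, 12.46 and 11.73 in TCE mice 1, 2 and 3. The lowest of these values was in TCE mouse 3. Such a mean rests mostly on the brightest genes of the list, and the genes did not all move in the same direction. TCE mouse 3 had the lowest Tef (14.21) and Dbp (13.44) signals of all mice and the highest Arntl (8.73) and Clock (9.15) signals. TCE mouse 2 had the reverse, with the highest Tef (15.02) and Dbp (14.51) and the lowest Arntl (6.87) and Clock (8.15) signals. The other clock genes did not all show this reversal. The part of these differences in the Elovl3 result was not tested.

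**Figure D3:**
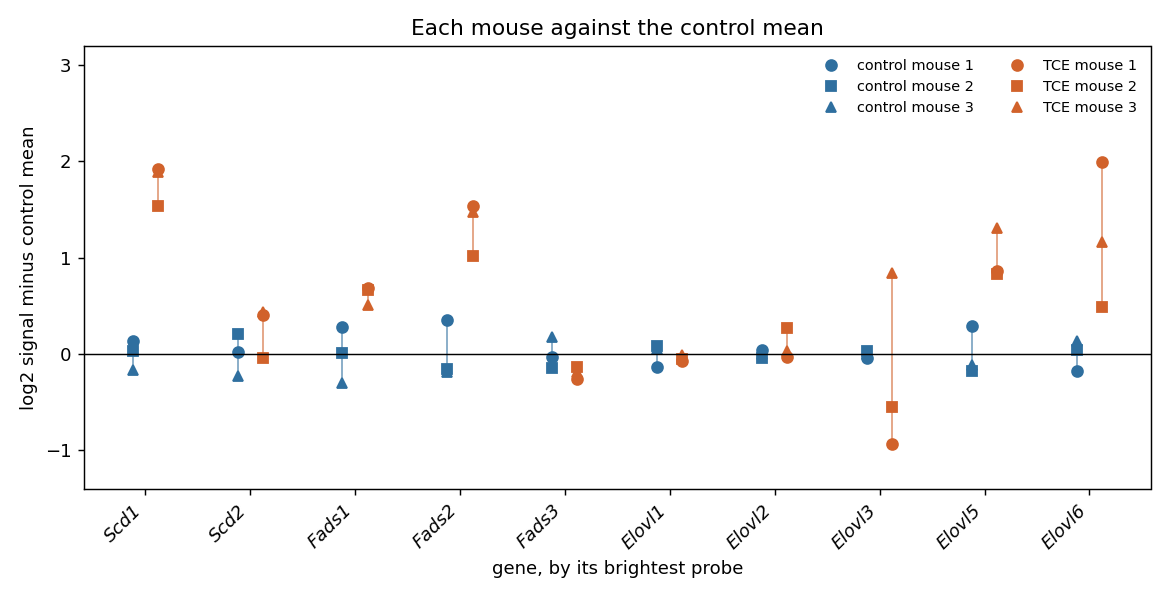
Log2 signal of each mouse minus the control mean (y axis) for the brightest probe of the 10 genes (x axis), with control mice in blue, TCE mice in orange, the same symbol for the same mouse throughout and a line over the range of each group. The TCE mice of Elovl3 lie on both sides of the control mean, at -0.93, -0.55 and 0.84, while those of Scd1 lie between 1.53 and 1.92.

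Elovl1, an elongase of very long saturated chains, and Elovl2, which acts on polyunsaturated chains late in the route to docosahexaenoate, overlapped between the groups. The brighter Elovl1 probe had 14.21, 14.42 and 14.39 in control mice and 14.27, 14.29 and 14.33 in TCE mice. Its log2 fold change was -0.04, with a 95% interval of -0.31 to 0.23, and the dimmer probe gave -0.02 with an interval of -0.29 to 0.24. Elovl2 had 14.71, 14.62 and 14.66 in control mice and 14.63, 14.93 and 14.69 in TCE mice. Its log2 fold change was 0.09, with an interval of -0.21 to 0.39. The intervals of both genes leave out a 2-fold change but not a smaller one. With no normalization between arrays Elovl1 turned to 0.17, and Elovl2 was at 0.00 without TCE mouse 2.

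In order of log2 fold change, Scd1 at 1.78 was followed by Fads2, Elovl6, Elovl5, Fads1, Scd2, Elovl2, Elovl1, Fads3 and Elovl3. For Scd1 against Scd2 and for Fads1 against Fads2 the within-mouse differences separated the groups. For Elovl5 against Elovl6 they did not, and no other genes in this order were tested against each other.

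The slide is a possible batch. Control mouse 1 was alone on slide 1 and the other 5 mice shared slide 2. The fit with the slide as a block therefore rests on 2 control and 3 TCE mice and repeats the fit without control mouse 1. Within slide 2 the log2 fold change of Scd1 was 1.85 (adjusted limma p of 0.025) and that of Fads2 1.52 (0.0531). Elovl5 was at 1.15 (0.09), Elovl6 at 1.13 (0.316) and Fads1 at 0.76 (0.128). The direction of these 5 genes was the same as over all 6 mice, and Fads2 lost its call by the brighter probe but not by the dimmer one, which was at 1.14 (adjusted limma p of 0.0496).

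For the lists of related genes and markers the threshold is an adjusted limma p of 0.05 or less at any fold. Of all genes tested, 1.80% passed it higher and 0.587% lower. After condensation, elongation needs a reductase (Hsd17b12), a dehydratase (the Hacd family) and a second reductase (Tecr). Of 7 such genes 6 were detected and 0 passed the threshold, with log2 fold changes of -0.06 to 0.45 and a median of 0.30. Before adjustment 3 had a limma p under 0.05, the dehydratase genes listed as Ptpla, Ptplb and Ptplad1, and in these all TCE mice were above all controls. Over all genes tested, 12.0% had such a p and were higher and 7.11% lower. All TCE mice were above all controls for 17.1% of them and below for 10.8%. The counts of the other lists are to be read beside these shares. Cytochrome b5 and its reductases, which bring electrons to the desaturases, were detected for 6 of 7 genes. Again 0 passed, with changes of -0.34 to 0.40 and a median of 0.08, and 2, Cyb5b and Cyb5r3, had an unadjusted limma p under 0.05.

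A list of fatty acid synthesis enzymes and related genes, which also holds Mlycd, the enzyme that breaks malonyl-CoA down, and the lipid droplet gene Pnpla3, was detected in full (11 of 11), and 2 of them passed the threshold, both higher, with a median log2 fold change of 0.35. Me1, the malic enzyme that yields NADPH, had log2 signals of 13.65, 13.50 and 14.03 in control mice and 15.27, 15.03 and 14.89 in TCE mice. Its log2 fold change was 1.34 ± 0.18 (SE), with an adjusted limma p of 0.0261. Leaving out a mouse cost this call in 5 of 6 fits, and it was kept only without control mouse 3 (adjusted limma p of 0.0384). Pnpla3, an acylglycerol-modifying enzyme of lipid droplets, was well above background in 0 control and 3 TCE mice. Taken against the lowest reliable signal of the control arrays, or the probe's own where higher, it was at least 4.44-fold higher in TCE mice. This limit was not tested. The adjusted limma p of 0.0252 belongs to the fitted log2 fold change of 2.88, which rests on control signals not well above background. Pnpla3 entered the test through its TCE arrays alone. Its call was also kept in 1 of 6 fits, without TCE mouse 2 (adjusted limma p of 0.0363). An unadjusted limma p under 0.05 was seen for 5 genes of the list, Me1, Pnpla3, Fasn, Acaca and Acacb. Fasn was at 1.13 (adjusted limma p of 0.0877) and Acaca at 0.77 (0.092), both with all TCE mice above all controls. Acacb was at 1.09 (0.179) and overlapped between the groups.

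Among acyl-CoA synthetases and acyltransferases that activate or store the products, 11 of 17 genes were detected, with a median log2 fold change of 0.25. With a fold limit of 2, 0 of them passed. An unadjusted limma p under 0.05 was seen for 3, Acsl5, Lpcat3 and Agpat3. Acsl5, a long-chain acyl-CoA synthetase, was the 1 gene past the adjusted p alone, at 0.70 ± 0.10 (SE), or 1.62-fold, with an adjusted limma p of 0.0306, and it was past it in 0 of the 6 fits that left out a mouse (adjusted p of 0.0658 to 0.133). The regulators were detected in full (13 of 13), and 0 passed, with changes of -0.96 to 0.30 and a median of -0.04. Before adjustment 1 had a limma p under 0.05, Insig1, a sterol-sensing retention protein, at -0.96 (adjusted limma p of 0.102). Srebf1, which encodes SREBP-1, had a log2 fold change of 0.25 (95% interval -0.10 to 0.60). Mlxipl, which encodes the carbohydrate-responsive factor ChREBP, was at -0.04 (-0.46 to 0.38). Nr1h3, the liver X receptor alpha gene, was at -0.13 (-0.51 to 0.25), and Ppara at 0.19 (-0.15 to 0.53). These are transcript levels, and the activity of the factors was not measured.

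The peroxisomal genes that shorten very long chains were read because they act on the products of elongation. All 8 were detected, 2 passed and both were higher, with a median log2 fold change of 0.65. An unadjusted limma p under 0.05 was seen for 5, Ehhadh, Acaa1b, Hsd17b4, Abcd3 and Abcd2, all higher. Of these, Abcd2 was well above background in 1 control and 3 TCE mice, so it entered the test through its TCE arrays alone. Ehhadh, the bifunctional enzyme, rose by 3.26 ± 0.14 (SE) on the log2 scale, from 12.88, 12.58 and 12.70 in control mice to 16.11, 16.02 and 15.80 in TCE mice (adjusted limma p of 0.000766). The thiolase Acaa1b rose by 2.00 ± 0.18 (SE), with an adjusted limma p of 0.00629. Ehhadh and Acaa1b kept their calls in all 6 fits that left out a mouse.

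**Figure D4:**
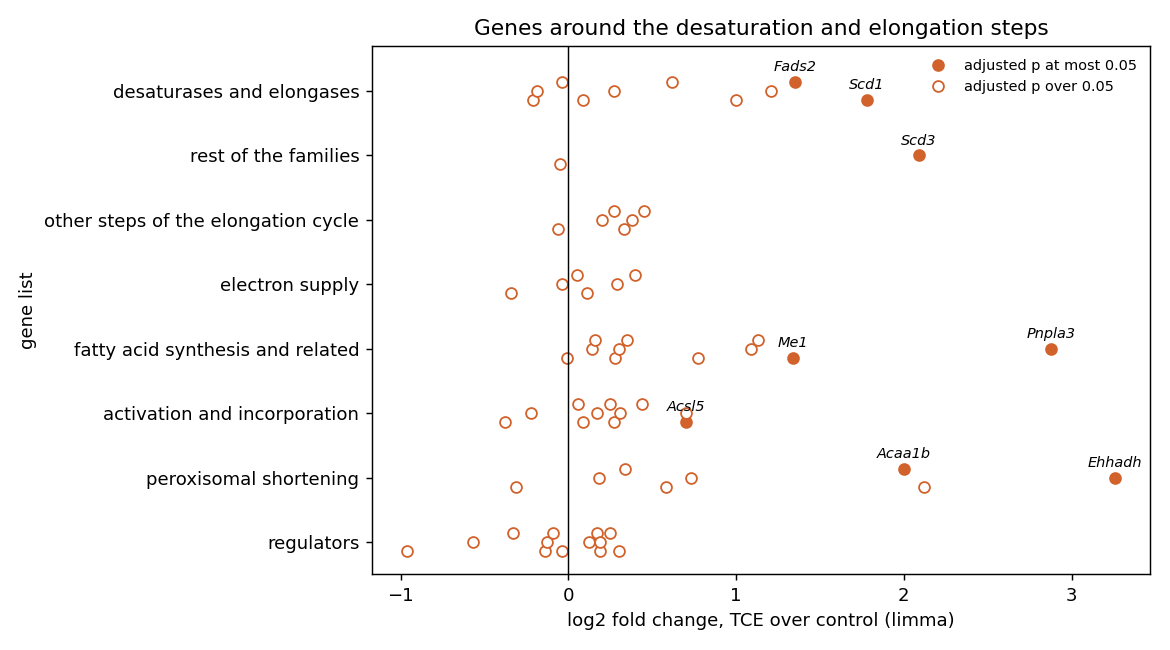
Log2 fold change of TCE over control (x axis) of each detected gene, 1 point per gene by its brightest detected probe, in the 10 genes described here and in 7 lists of related genes (y axis). Filled and named points have an adjusted p of 0.05 or less. The filled points run from Acsl5 at 0.70 to Ehhadh at 3.26, and the regulators, the electron supply and the other steps of the elongation cycle have none. Pnpla3 is drawn at its fitted value of 2.88, which rests on control signals not well above background. Abcd2, drawn at 2.12, was well above background in 1 control and 3 TCE mice.

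The liver label was checked by marker genes. All 9 hepatocyte markers were detected, 0 passed the threshold, and the log2 of their mean signal was 17.48 to 17.54 in control and 17.38 to 17.46 in TCE mice. Of 6 adipocyte markers only Cidec was detected, and Adipoq, Plin1 and Lep were well above background in 0 of 6 mice. Cfd and Retn were each well above background in 1 TCE mouse. The log2 signal of Cfd was 7.77 in TCE mouse 3 and 2.99 to 4.20 in the other 5 mice. Cidec, a lipid droplet protein that liver also makes, was higher by 1.97 ± 0.17 (SE), with an adjusted limma p of 0.00553, and kept its call in all 6 fits with a mouse left out. Markers of Kupffer cells (6 of 6 detected), stellate cells and fibroblasts (6 of 7), smooth muscle (3 of 4), cholangiocytes (3 of 5), endothelium (5 of 5) and lymphocytes (4 of 5) had 0 genes past the threshold. Before adjustment, limma p values under 0.05 were seen for 2 hepatocyte markers (Apoa1 and Tat), 1 each of stellate cells (Lrat), smooth muscle (Cnn1) and lymphocytes (Cd3e), and 0 of the clock, Kupffer, cholangiocyte and endothelial lists. Over all genes tested, 12.0% had such a p and were higher and 7.11% lower. Cnn1 was well above background in 3 control and 0 TCE mice, so it entered the test through its control arrays alone. Genes named for an unadjusted p were chosen after their values were seen. The log2 mean signal of the endothelial markers was 11.28 in TCE mouse 1 and 12.11 to 12.25 in the other 5 mice. Of 4 erythroid markers 3 were detected, and Alas2, the heme synthesis enzyme of red cells, fell by 0.91 on the log2 scale (adjusted limma p of 0.0215), which is less than a 2-fold change. Its adjusted p stayed under the threshold in 1 of 6 fits, without TCE mouse 3 (adjusted limma p of 0.0404). The log2 mean signal of the erythroid list was 13.28 in TCE mouse 2 and 14.24 to 15.17 in the other 5 mice. Whether these differences between mice played a part in the spread of Elovl3 and Elovl6 was not tested.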

How the data were processed

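Single-colour Agilent 8x60K mouse arrays were used, 6 in all, for liver RNA of 3 control and 3 TCE mice. Per the methods and the submitters' processing notes, the authors extracted the scans with Feature Extraction 10.7.1.1, and the deposited files hold for each spot a background-corrected processed intensity, its flags, and the raw mean and local background intensity. A deposited summary of the authors' normalized log2 values, averaged over each group, served only as a check, and its 6 columns of per-array flags were not used. Over the member probes the group means lay within 0.0049 of that summary.

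Spots that were not controls (59305 spots of 55681 probes) were put on the log2 scale without a pseudocount. Outlier spots (123 to 189 an array) were left out, replicate spots were averaged, and quantile normalization made the arrays comparable. Between 23537 and 24965 probes an array were well above background and 0 spots were saturated. Precision rests on 3 arrays a group. Pearson r between arrays was 0.987 to 0.990 within control mice, 0.978 to 0.987 within TCE mice and 0.971 to 0.982 between the groups. A probe was detected, and tested, if all 3 arrays of either group had it well above background. The test was two-sided, by lmFit and eBayes of limma (version 3.58.1, R version 4.3.3) without covariates, and files were read with the data.table package (1.17.8). A gene was represented by its brightest detected probe. For a probe dim in all controls a lower limit replaced the fold. Paralog differences were tested by exact permutation of all 20 splits of the mice (two-sided). The procedure was tested on simulated data, and figures were drawn with matplotlib.

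Named were the 10 members by every probe, up to 4 called genes of each other list, the other desaturases and elongases, and Srebf1, Mlxipl, Nr1h3 and Ppara. A gene of the peroxisomal list is not reported here and was left out of its counts. The members and lists were chosen with earlier results of these data known. Replicate numbers came from the labels, and nothing ties control mouse 1 to TCE mouse 1. Alternatives covered normalization, background, filters, outlier spots, variance trend, blocks, the methods' t-test, several probes and each mouse left out. The other Fads2 probe, and leaving out mice for it and for the called genes of the lists, were added after seeing the data. RefSeq gene order and promoters are on GRCm38 and probe positions on mm9, and no position was converted. Other doses, qPCR and methylation were not analysed here.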

Additional observations from a re-analysis of the deposited data

Results flagged for a closer look

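Scd4 had a signal in a spot that the comparisons above left out. The log2 processed signal of the Scd4 probe was 16.02 in TCE mouse 1, where the scanner software marked the spot as an outlier and as not uniform. In the other 5 mice it was 2.38 to 3.48 and not well above background. In the authors' deposited table, which gives only group means, the log2 difference between the groups was 4.63 for this probe. The value of TCE mouse 1 was not seen in the other TCE mice (3.48 and 3.15), and no change of Scd4 is reported from it.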

How the results depend on the processing

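Over the 20 alternatives, of which 19 gave a test, the log2 fold change of Scd1 stayed between 1.70 and 1.95 and that of Fads2 between 1.09 and 1.62. Scd1 lost its call in 2 of them and Fads2 in 10. The slide block and leaving out control mouse 1 gave the same values for all 10 genes, and these counts take them as separate alternatives. The count of genes called higher was 2 of 10. It was 1 with no normalization between arrays (Fads2 at 1.62, adjusted p of 0.0627), 1 with no filter on dim probes, where more probes were tested (0.145), and 1 with the slide as a block. It was 0 by the methods' t-test after Benjamini-Hochberg adjustment (Scd1 at 0.0577, Fads2 at 0.128). That test called 0 genes in each related list where limma called 0, and also 0 where limma called Scd3, Me1 and Pnpla3, Cidec or Alas2. The methods' t-test without adjustment called 3 genes with the 2-fold limit and 4 without it, adding Elovl5 (p of 0.00935) and Fads1 (0.0242), against 2.15% and 12.1% of all genes tested. Normexp and the variance trend each gave 3, by adding Elovl5. By its dimmer probe Fads2 kept its call with no normalization (1.38, adjusted p of 0.0437) and with the slide as a block (1.14, 0.0496), and lost it with no filter (0.053), the replicate block (0.0879) and the adjusted t-test (0.0581). With each mouse left out the count was 1 to 2. The count of genes called lower was 0 under every alternative. Values that changed sign were those of Fads3 (0.02), Elovl1 (0.17) and Elovl3 (0.06) with no normalization, where the median of all probes tested was 0.25, Elovl2 with each mouse left out (0.00 to 0.15), Elovl3 likewise (-0.74 to 0.15) and the difference of Elovl5 and Elovl6 likewise (-0.49 to 0.24). For other changes the cause was not tested.

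The labels give shared replicate numbers but no pairing of the mice. Deviations from the group means correlated at 0.09, 0.01 and -0.09 for mice of the same number, against -0.11 to 0.11 over all pairs. Such deviations cancel within a group, so these values are a description and no test of pairing. With the replicate number as a block the count of members called was 0, with Scd1 at an adjusted p of 0.0663 and Fads2 at 0.096, and over all probes the block left 56 higher and 7 lower calls, against 234 and 87 without it. The adjusted p values named here are from limma, apart from those of the t-test.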
